A study of Mus musculus with 66 samples.

Results

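Genes of B cells and of the lymphoid follicle (9 in all) were followed through dextran sulfate sodium (DSS) colitis in mice. They were taken by symbol from a deposited table of transcript abundances, and all 9 were found among the 30351 genes of that table. They were Cd79a, Cd79b, Ms4a1, Cr2, Fcer2a, Pax5 and Cxcr5, which are used by B cells, and the follicle chemokines Cxcl13 and Ccl19. The samples were 66 pieces of gut from 19 C57Bl/6 mice that had been bought at 6 weeks of age, and no transgene or mutant allele was named for any group. Mice of day 0 were not injured (4 mice). The other mice received 3% DSS, a chemical that strips the colonic mucosa, on a course of 6 days from day 0, and were killed on day 3, 6, 9, 14 or 20 (3 mice each), so day 3 fell within the course. Mid-colon, rectum and anus were taken from every mouse, and a squamous neo-epithelium only at days 9, 14 and 20 (9 mice). The muscle layer was removed before RNA isolation. Each value is in TPM, the usual length-adjusted share of a library's transcripts, and the number of reads behind it is unknown.

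B cells carry an antigen receptor whose signal passes through the Cd79a and Cd79b chains, and in the gut wall they collect in isolated follicles and larger patches. Stromal cells of the follicle release Cxcl13, which draws B cells and follicular helper T cells through the receptor Cxcr5. Ccl19, made by stromal and dendritic cells of the T cell zone, draws T cells and dendritic cells through Ccr7. In whole tissue, more B cells and more RNA per B cell cannot be told apart, and whether a piece of colon held a follicle was not recorded.

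The results turn on 2 chemokine genes of different structure. Cxcl13 (ENSMUSG00000023078) lies on the plus strand at chr5:95956951-95961068 in GRCm38 and had 1 transcript with values. The 250 bases before its RefSeq start (GRCm38.p6, chr5:95956689-95956938, plus strand) are shown because Cxcl13 differed between days in mid-colon, rectum and anus alike, with a TATAAA match in capitals.
Cxcl13 upstream: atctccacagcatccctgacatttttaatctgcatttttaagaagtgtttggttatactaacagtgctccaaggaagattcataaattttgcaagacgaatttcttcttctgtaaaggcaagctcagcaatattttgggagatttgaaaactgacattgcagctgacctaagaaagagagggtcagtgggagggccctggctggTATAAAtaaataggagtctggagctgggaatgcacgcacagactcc
The letters TATAAA were at base 205 of this stretch, and on either strand 12.4% of 32851 windows of that length in the RefSeq promoter table hold them. The early B cell factor letters CCCNNGGG (11.8% of windows), the octamer ATGCAAAT (1.6%) and the NF-kappaB consensus (7.25%) had no match there.

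Ccl19 (ENSMUSG00000071005) lies on the minus strand at chr4:42754525-42756577 in GRCm38. Its coding transcript Ccl19-201 has 4 exons and 745 bases, while Ccl19-202, annotated as a processed transcript without a coding sequence, has 3 exons and 646 bases. Exon 2 of Ccl19-201 (chr4:42755168-42755300, minus strand) is absent from Ccl19-202. That exon is shown because most of the anal signal described below was assigned to the transcript that lacks it. Its capitals mark the codons of the adjacent cysteines that give CC chemokines their name. In the junction of Ccl19-202 the capitals begin after the skipped exon.
Ccl19-201 exon 2: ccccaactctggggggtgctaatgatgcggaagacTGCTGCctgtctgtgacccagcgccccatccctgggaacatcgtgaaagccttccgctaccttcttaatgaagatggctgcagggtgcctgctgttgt
Ccl19-202 junction: tctggaccttcccagGTTCACCACACTAAG
The cysteine codons start at base 36 of the exon. A further identifier under the Ccl19 symbol, which GENCODE vM21 does not hold, added little to the sums (mean 0 to 0.268 TPM per section), and Ccl19 has near-identical copies in the mouse genome, so its level is uncertain.

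The colonic pieces showed fewer genes at 1 TPM or more (mid-colon 11240 to 12498, rectum 11634 to 13205) than the squamous ones (anus 12375 to 13758, neo-epithelium 12656 to 13227). The anal samples carried skeletal muscle genes (summed 832 to 9319 TPM over 4 genes, against at most 105 TPM in any rectal sample), and the squamous keratin Krt13 was at 1659 to 10978 TPM there. In neo-epithelium Krt13 was at 3722 to 9928 TPM. Replicates are separate mice throughout.

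The B cell genes were low in every uninjured section. In mid-colon at day 0, Cd79a (ENSMUSG00000003379, chr7:24897381-24902197) was at 0.696, 0.714, 0.465 and 0.847 TPM, and in anus all 7 B cell genes had at most 1.38 TPM. In rectum the uninjured mice were unlike each other: Cd79a was at 3.97, 0.177, 0.239 and 9.96 TPM. Ms4a1, the B cell surface protein CD20 (ENSMUSG00000024673, chr19:11249675-11266241), was at 1.92, 0.714, 0.503 and 4.16 TPM in those 4 samples. Mice 1 and 4 were thus high and mice 2 and 3 low for both genes, a spread that enters every rectal comparison with day 0.

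**Figure D1:**
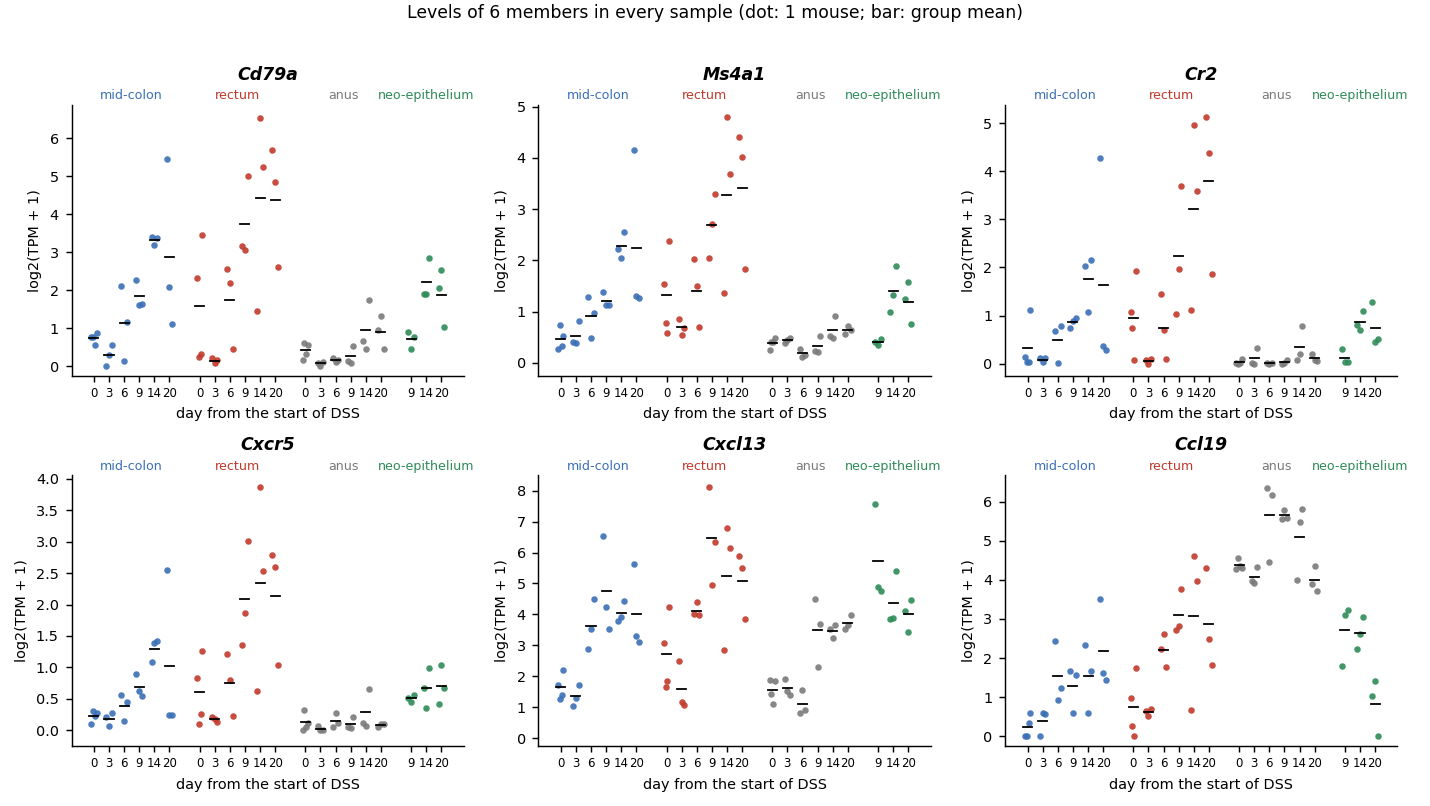
Levels of Cd79a, Ms4a1, Cr2, Cxcr5, Cxcl13 and Ccl19 as log2(TPM + 1) (vertical axis) against day (horizontal axis) in each section, with 1 dot per mouse and a bar at the group's mean of the log2 values. Rectal Cd79a spread widely at day 0 (0.177 to 9.96 TPM) as well as at day 14 (1.75 to 92.5 TPM). In anus the B cell genes stayed low on every day.

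In mid-colon Cxcl13 passed the test at days 6, 9 and 14 and several B cell genes at days 9 and 14. Injured mice were compared with the uninjured mice, day by day and section by section (3 mice against 4), and the differences below are on the log2(TPM + 1) scale, which understates the change of low genes, with their standard error (SE) and the p-value adjusted over all genes tested. Only genes at 1 TPM or more in at least 3 of the samples compared were tested, so the number of members tested varied, and a member that passed only through its injured mice was bound to differ. At day 3, 0 of the 2 members tested were called in limma, with 1 at an unadjusted p under 0.05 (background: 0.376% of all genes called).

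Cxcl13 was at 2.31, 1.42, 1.64 and 3.59 TPM in mid-colon at day 0 and at 6.4, 10.5 and 21.8 TPM at day 6. All 3 mice of day 6 lay above all 4 of day 0, and the log2 difference was 1.99 ± 0.37 (SE; adjusted p 0.00939). It was the 1 member called of 2 tested that day, when 14.9% of all genes were called, and without mouse 9 there were 2 calls of 4 tested. Cd79a on the same day was at 3.34, 0.101 and 1.24 TPM, which overlapped day 0.

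At day 9 Cxcl13 reached 91.3, 17.7 and 10.6 TPM in mid-colon, its highest values there (log2 difference 3.12 ± 0.58 SE, adjusted p 0.00176). Cd79a was at 3.79, 2.05 and 2.12 TPM, above every day 0 sample (1.09 ± 0.21 SE, adjusted p 0.00193). Ms4a1 was at 1.61, 1.18 and 1.18 TPM (0.75 ± 0.18 SE, adjusted p 0.00709). Cd79b, the partner chain of Cd79a (ENSMUSG00000040592, chr11:106311341-106314762), rose as well (0.91 ± 0.26 SE, adjusted p 0.0181). All 4 members tested were called higher that day, when 43.5% of all genes were called and 26.5% were called higher. Cd79a and Ms4a1 reached the 1 TPM minimum only through the day 9 mice and were bound to lie higher, so the count is a description. Cr2, Fcer2a, Cxcr5, Pax5 and Ccl19 were too low to be tested. With all days in one fit the calls of Cd79a, Cd79b and Ms4a1 were lost (adjusted p 0.194, 0.199 and 0.206), and that of Cd79b also without mouse 11 (0.055) or with low genes left in (0.0566).

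By day 14 few genes were still called in mid-colon (4.37% of all genes, 2.55% higher), and 6 of the 7 members tested were called, all higher. Of these 7, Cd79a, Ms4a1, Cr2, Fcer2a and Cxcr5 reached the 1 TPM minimum only through the day 14 mice, apart from 1 value of Cr2, so the count is a description. Cd79a was at 9.57, 8.09 and 9.45 TPM, its 3 mice close together (2.58 ± 0.17 SE, adjusted p 0.000932). Ms4a1 was at 3.69, 3.15 and 4.9 TPM (1.82 ± 0.19 SE, adjusted p 0.0033). The groups did not overlap for either gene, and the share of all genes that lay apart in this way was not computed.

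The receptor Cxcr5 (ENSMUSG00000047880, chr9:44511787-44561877) was at 0.0746, 0.238, 0.174 and 0.212 TPM in mid-colon at day 0 and at 1.11, 1.61 and 1.68 TPM at day 14 (1.07 ± 0.16 SE, adjusted p 0.0121). Fcer2a, the low-affinity IgE receptor CD23 of resting and follicular B cells (ENSMUSG00000005540, chr8:3681737-3694175), was at 2.33, 1.13 and 1.3 TPM (1.03 ± 0.20 SE, adjusted p 0.0284). Cr2, complement receptor CD21 of B cells and follicular dendritic cells (ENSMUSG00000026616, chr1:195136811-195176716), was at 3.1, 1.1 and 3.48 TPM. Its day 0 values of 0.0945, 0.0233, 0.0184 and 1.16 TPM overlapped these through mouse 4, and it was not called (1.43, adjusted p 0.0519). Cd79b (2.46 ± 0.20 SE, adjusted p 0.0011) and Cxcl13 at 12.7, 14.2 and 20.8 TPM (2.40 ± 0.27 SE, adjusted p 0.00436) were the other calls. The Fcer2a call was lost in 5 of 7 fits that each left out 1 mouse (adjusted p up to 0.112), with no filter (0.0549) and with all days in one fit (0.197). The Cxcr5 call was lost without mouse 15 or 16 (adjusted p 0.0582 and 0.0861) and with all days in one fit (0.0926).

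The mid-colon of day 20 was uneven, with mouse 17 far above the other 2. Cd79a was at 42.5 TPM in mouse 17 and at 3.27 and 1.15 TPM in mice 18 and 19. Cr2 was at 18.5 TPM in mouse 17 and at 0.281 and 0.211 TPM in the other 2, and Cxcl13 was at 48.5, 8.9 and 7.69 TPM. Mouse 17 held the section's highest value for 8 of the 9 members, the exception being Cxcl13. For the 5 members tested all 3 mice lay above every mouse of day 0. For Cd79a, Ms4a1 and Ccl19 this was bound to be so, since only the day 20 mice brought them to the 1 TPM minimum. The share of all genes that lay apart in this way was not computed. None of the 5 was called in limma (adjusted p 0.0571 to 0.166, 5 at an unadjusted p under 0.05, background 1.56%). Without mouse 19, 5 members were called, and without mouse 4, 2, while the other 5 of 7 such fits called none. The shares of all genes called in these fits are not given here.

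Pax5, the transcription factor that holds B cell identity (ENSMUSG00000014030, chr4:44524757-44710487), was listed at 0 in mid-colon of mice 1 and 2 and in all 3 of day 3, and reached 2.69, 0.728 and 1.09 TPM at day 14. Over all days of mid-colon, 6 of 9 members differed between days (moderated F test in limma, background 53.1%): Cd79a, Cd79b, Ms4a1, Pax5, Cxcl13 and Ccl19, with adjusted p from 0.000937 for Cxcl13 to 0.0193 for Ccl19. That of Ccl19 was lost with low genes left in (0.0535).

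In rectum Ccl19 passed the test at day 6 and B cell genes at day 9, and the later days were split between mice. At day 3 the only member tested, Cxcl13, was not called (4.67, 1.23 and 1.11 TPM, 0 at an unadjusted p under 0.05 in limma, background 6.65%). At day 6 Ccl19 was at 3.66, 5.18 and 2.42 TPM, all above its day 0 values of 0.971, 0.197, 0 and 2.34 TPM (1.46 ± 0.40 SE, adjusted p 0.0174). Cxcl13 was at 15.0, 20.2 and 14.7 TPM against 7.51, 2.16, 2.62 and 17.9 TPM, groups that overlapped (1.42 ± 0.55 SE, adjusted p 0.0616). Ccl19 was the 1 member called of 6 tested, while 48.8% of all genes were called, and the 4 B cell genes tested had log2 differences between -0.20 and 0.22. With all days in one fit it was lost (adjusted p 0.125). Without mouse 9 it was lost too (0 members), and without mouse 4 there were 2 calls.

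Rectal day 9 held the highest Cxcl13 of the series, 279, 30.2 and 80.8 TPM, all above day 0 (3.77 ± 0.80 SE, adjusted p 0.00402). Ccl19 was at 5.59, 6.12 and 12.7 TPM, also apart from day 0 (2.36 ± 0.43 SE, adjusted p 0.00177). Cxcr5 was at 1.57, 2.64 and 7.1 TPM against 0.776, 0.071, 0.192 and 1.39 TPM (1.47 ± 0.42 SE, adjusted p 0.0157). For these 3 genes the groups did not overlap, and the share of all genes that lay apart in this way was not computed. Apart from mouse 4 of day 0, only the day 9 mice brought Ccl19 and Cxcr5 to the 1 TPM minimum.

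For Ms4a1, Cd79b and Cd79a rectal day 9 overlapped day 0 through mouse 4 of day 0. Ms4a1 was at 3.15, 5.58 and 8.86 TPM (1.37 ± 0.45 SE, adjusted p 0.0303), and Cd79b was at 11.0, 15.8 and 31.8 TPM (2.22 ± 0.74 SE, adjusted p 0.0319). Cd79a at 7.92, 7.28 and 30.9 TPM had a log2 difference of 2.16 ± 0.83 (SE; adjusted p 0.0548), which was not called. In all, 5 of 7 members tested were called, all higher, when 53.5% of all genes were called and 33.5% were called higher. Without mouse 13 the calls of Cd79b, Ms4a1 and Cxcr5 were lost and 2 calls were left. The calls of Cd79b and Ms4a1 were also lost without mouse 2, 3 or 12, with low genes left in (adjusted p 0.0773 and 0.0731) and with all days in one fit (0.0587 and 0.113).

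At day 14 the highest and some of the lowest B cell values of the late rectum came from mice of the same group. Cd79a was at 1.75, 92.5 and 36.9 TPM in mice 14, 15 and 16. Cr2 was at 1.16, 30.2 and 11.1 TPM, and Cxcl13 at 6.14, 109 and 69.3 TPM. Mouse 14 was the lowest of the 3 for all 9 members and mouse 15 the highest. None of 8 members tested was called in limma (6 at an unadjusted p under 0.05, log2 differences 1.44 to 2.84, background 15.9%). Without mouse 14 all 9 were called, and in the other 6 fits that each left out 1 mouse none was. The fit without mouse 14 dropped the mouse lowest for all 9 members and asked for 1 TPM in fewer samples. Its share of all genes called is not given here.

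At day 20 mouse 19 took the place of mouse 14. Cd79a was at 51.0, 27.6 and 5.1 TPM in mice 17, 18 and 19, Cr2 at 33.8, 19.8 and 2.66 TPM, and Cxcl13 at 58.1, 44.5 and 13.4 TPM. None of 8 members was called in limma (8 at an unadjusted p under 0.05, adjusted p 0.0541 to 0.098, background 7.68%). Without mouse 19, the lowest of the group, all 9 were called, again with 1 TPM asked of fewer samples. The share of all genes called in that fit is not given here either, and the 7.68% belongs to the full fit. In the other 6 fits that each left out 1 mouse none was called. Mice 14 and 19 also had little of the squamous keratin Krt5 in that piece, a gene looked up after these values were seen. Rectal Krt5 was at 0.101, 151 and 108 TPM in mice 14, 15 and 16 and at 70.9, 39.1 and 0.029 TPM in mice 17, 18 and 19. At day 0, however, mouse 4 had the highest Cd79a and the lowest Krt5 (0.613 TPM), and whether the place of the cut plays a part in the B cell values was not tested.

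Over all days of rectum the 9 members differed between days in the moderated F test (9 of 9, background 64.2%), with adjusted p from 0.00262 for Cxcl13 to 0.0423 for Fcer2a. The Fcer2a call was lost in 14 of 19 fits that each left out 1 mouse (adjusted p up to 0.0902) and with no filter (0.0837), and that of Ccl19 with its coding transcripts alone (0.163). The difference between the rectal and the mid-colonic response was tested itself. At day 9 it passed for 0 of 7 members in limma (2 at an unadjusted p under 0.05, background 6.55%), namely Cxcr5 (1.02, adjusted p 0.272) and Ccl19 (1.32, adjusted p 0.216). At day 20 it passed for 0 of 9 (0 at an unadjusted p under 0.05, background 0.00758%).

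**Figure D2:**
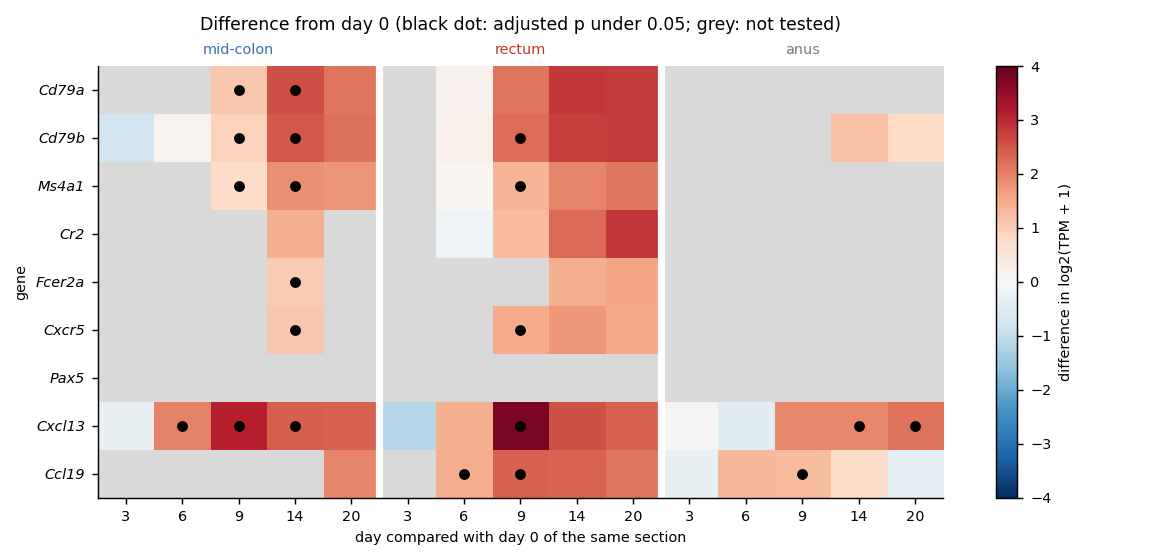
Log2 differences from day 0 of the same section (colour scale) for the 9 members (rows) in mid-colon, rectum and anus at each later day (columns), with a black dot where the adjusted p was under 0.05 and grey where the gene was too low to be tested. Mid-colon day 14 has 6 dots and rectal day 9 has 5, while rectal days 14 and 20 have none despite log2 differences of up to 2.84.

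In anus the B cell genes were low while both chemokines were present. Ms4a1 lay between 0.0884 and 0.888 TPM in all 19 anal samples, and 68.6% of that small amount was assigned to a retained-intron transcript (11.6% in rectum). Cr2 was at most 0.715 TPM, Fcer2a at most 0.345 TPM and Cxcr5 at most 0.582 TPM. Pax5 was listed at 0 in 11 of 19 samples and reached 2.54 TPM in 1, and Cd79a was at most 2.37 TPM. Cd79b, at 1 TPM or more in 9 of 19 samples, was the only B cell gene that was tested, at day 14 with 2.68, 1.15 and 4.61 TPM against 0.66, 0, 0.53 and 1.38 TPM (1.18, adjusted p 0.16, and 0.0445 with all days in one fit).

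Cxcl13 rose in anus even so, and passed the test at days 14 and 20. It was at 2.67, 1.71, 1.16 and 2.61 TPM at day 0 and at 0.742, 1.92 and 0.89 TPM at day 6. It then reached 21.6, 3.93 and 12.0 TPM at day 9 (1.93 ± 0.47 SE, adjusted p 0.0522, and 2.53 with adjusted p 0.00986 without mouse 12). At day 14 it was at 10.4, 8.53 and 11.7 TPM (1.91 ± 0.25 SE, adjusted p 0.00906) and at day 20 at 10.6, 11.7 and 14.8 TPM (2.16 ± 0.25 SE, adjusted p 0.0128). From day 9 on, every anal sample lay above every sample of day 0. The day 20 call was lost without mouse 2, 18 or 19, and without mouse 14 there were 2 member calls at day 14.

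Ccl19 had its highest levels in anus, injured or not. At day 0 it was at 18.6, 22.5, 19.4 and 18.9 TPM there, against at most 2.34 TPM in rectum (3.63 ± 0.33 SE, adjusted p 1.43e-05, 1 of 2 members called, background 60.3%). Cxcl13 in the same comparison was not called (-1.14, adjusted p 0.0734), and with the mouse as a block 2 members were called. Between rectum and mid-colon at day 0, 0 of 2 members tested passed in limma, with 0 at an unadjusted p under 0.05 (background 1.8%). Cd79b differed by 0.76 (adjusted p 0.42) and Cxcl13 by 1.06 (adjusted p 0.228).

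Anal Ccl19 was at 81.3, 20.9 and 71.3 TPM at day 6 (1.29, adjusted p 0.0704) and at 46.5, 54.4 and 47.4 TPM at day 9 (1.28 ± 0.15 SE, adjusted p 0.00193). With all days in one fit that call was lost (adjusted p 0.054), while Cxcl13 at anal day 9 was called (0.0026). By day 20 it was at 14.0, 19.6 and 12.2 TPM, below every day 0 sample in 2 of 3 mice. The members called in anus were 0 of 2 at day 3 (0 at an unadjusted p under 0.05, background 0.0441%), 0 of 2 at day 6 (1 at an unadjusted p under 0.05, 15%), 1 of 2 at day 9 (5.08%), 1 of 3 at day 14 (4.25%) and 1 of 3 at day 20 (1.46%). These counts are from limma. Over all anal days Cxcl13 (adjusted p 0.000137) and Ccl19 (adjusted p 0.0143) passed, 2 of 3 members tested against 24.5% of all genes. Without mouse 15 the count over days was 4, and without mouse 9 there was 1 call at day 6.

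Most of the anal Ccl19 signal was not assigned to a coding transcript. Ccl19-202, the transcript without the exon printed above, held 92.9% of the mean anal level (29.8 TPM) and between 79.5% and 100% in each of the 19 samples. In rectum it held 47.7% of the mean (2.65 TPM), in mid-colon 56.4% and in neo-epithelium 64.3%. The share in single samples was often higher there as well. Its median was 100% over the 16 mid-colonic samples with any Ccl19, 67.3% over 18 rectal and 75.2% over 8 neo-epithelial ones. A high share was thus not particular to anus. The coding transcripts alone were at 0, 1.61, 0.954 and 1.03 TPM in anus at day 0 and at 3.04, 2.77 and 4.1 TPM at day 9. In rectum the coding transcripts reached 14.1 TPM, above the anal maximum of 5.69 TPM. Their median over 19 samples was lower in rectum, at 0.448 TPM against 2.05 TPM in anus. With coding transcripts alone, a check added after these values were seen, Ccl19 was too low to be tested between anus and rectum at day 0, in rectum at day 6 and between neo-epithelial days 20 and 9. Its calls were lost in anus at day 9 (1.25, adjusted p 0.0684), in rectum at day 9 (1.36, adjusted p 0.0729) and over mid-colonic (0.608), rectal (0.163) and neo-epithelial days (0.0834). The reads were single-end and 75 bases long, the transcripts share most of their bases, and how far that assignment is correct was not tested.

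**Figure D3:**
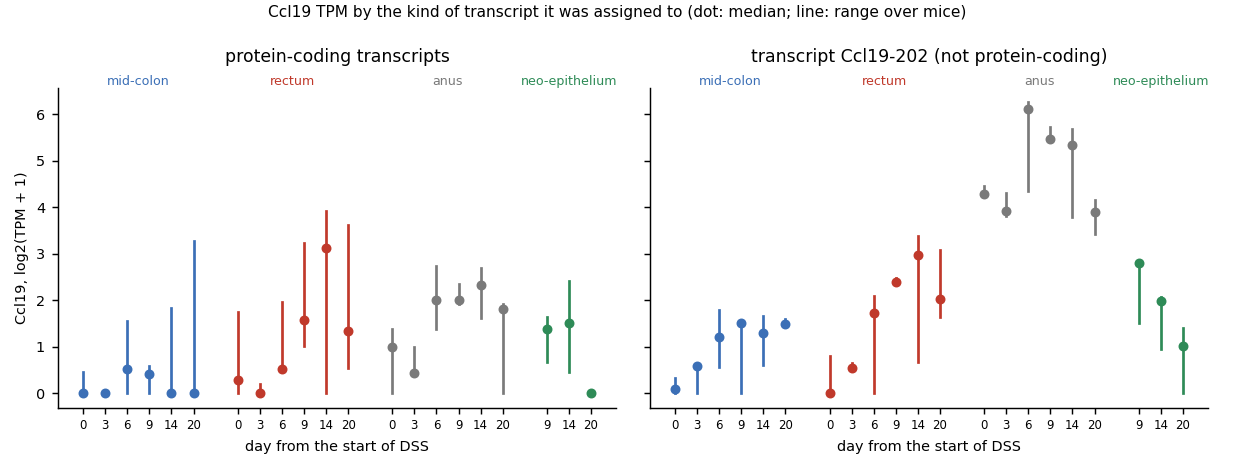
Ccl19 TPM by section and day for the coding transcripts and for Ccl19-202, with the dot at the group's median and the line over its range. In anus Ccl19-202 lay between 9.73 and 75.6 TPM while the coding transcripts stayed at or below 5.69 TPM.

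The neo-epithelium held Cxcl13 without rectal levels of B cell genes. At day 9 Cxcl13 was at 188, 28.6 and 26.1 TPM, and Ms4a1 in the same samples was at 0.325, 0.265 and 0.377 TPM. At day 14 Ms4a1 was at 0.976, 1.51 and 2.68 TPM and at day 20 at 1.37, 2.0 and 0.691 TPM. All 6 later samples thus lay above the 3 of day 9, and the change of Ms4a1 over days was not called (adjusted p 0.0649). Cd79b was at 1.53, 1.13 and 1.4 TPM at day 9 and at 3.87, 8.0 and 4.22 TPM at day 20 (1.38 ± 0.27 SE, adjusted p 0.0139).

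Ccl19 in neo-epithelium went the other way, from 2.45, 7.63 and 8.44 TPM at day 9 to 1.03, 1.66 and 0 TPM at day 20 (-1.90 ± 0.51 SE, adjusted p 0.0353). Its coding transcripts were listed at 0 in all 3 mice of day 20. Cxcl13 was at 16.4, 9.86 and 21.0 TPM at day 20 and was not called (-1.73 ± 0.75 SE, adjusted p 0.134). Between these days 2 of 4 members were called (background 26.3%), and over all 3 days 2 of 5, Cd79b and Ccl19 (background 20.4%). Without mouse 12, or without mouse 13, neither comparison kept a call, and without mouse 17 each kept 1. The count over days was also 1 without mouse 15 or mouse 16. Both Ccl19 calls were lost without mouse 19 (adjusted p 0.0866 over days and 0.0778 between days 20 and 9).

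Against rectum of the same days, 5 of 7 members tested were lower in neo-epithelium (42.9% of all genes were called, 22% lower). Cr2 and Cxcr5 reached the 1 TPM minimum mainly through rectal samples, with 2 and 1 neo-epithelial samples at 1 TPM or more. The filter thus favoured a lower neo-epithelial level for these genes, and the count is a description. Ms4a1 differed by -2.13 ± 0.40 (SE, adjusted p 0.000321), Cd79b by -2.45 ± 0.47 (adjusted p 0.000461), Cr2 by -2.50 ± 0.49 (adjusted p 0.000559), Cd79a by -2.58 ± 0.56 (adjusted p 0.00123) and Cxcr5 by -1.56 ± 0.35 (adjusted p 0.00157), with 9 mice in each group. The chemokines were not called in that comparison, Cxcl13 at -0.90 ± 0.56 (SE, adjusted p 0.211) and Ccl19 at -0.97 (adjusted p 0.124). Against anus 3 of 3 members were called (59.8% of all genes): Cd79b by 0.80 ± 0.19 (SE, adjusted p 0.00196) and Cxcl13 by 1.14 ± 0.41 (adjusted p 0.0247) were higher, and Ccl19 by -2.86 ± 0.27 (adjusted p 1.36e-07) was lower. The Cxcl13 call was lost without mouse 16 (adjusted p 0.053).

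Whether the chemokines moved with the B cell genes was asked in each section with Ms4a1, since Cd79a is also made by plasma cells and Cr2 by follicular dendritic cells. Correlations were taken over mice on the log2 scale, pooled over days and then on deviations from the day mean. In all 120 correlations were computed, and the p-values are from two-sided permutation tests adjusted over all of them. Samples of 1 day share the stage of injury, which the pooled value includes.

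Rectum showed the closest relation. Ms4a1 and Ccl19 had a Pearson r of 0.90 and a Spearman rho of 0.88 over 19 mice (permutation p for r 1e-05, the smallest the resamples can give, adjusted p 0.000109). Within days r was 0.91 (exact permutation p 0.000139, adjusted p 0.000914) and rho 0.86. Without the 2 samples farthest from the median of Ms4a1 the pooled r was 0.83, and this check was not run within days. With the coding transcripts of Ccl19 alone the pooled r was 0.88. Ms4a1 and Cxcl13 had r 0.79 and rho 0.88 (permutation p 2e-05, adjusted p 0.000185), and within days r 0.71 and rho 0.66 (exact permutation p 0.0192, adjusted p 0.0469). Their pooled r was 0.77 without the 2 samples. The rectal relation with Cxcl13 had exceptions: at day 9 mouse 11, with 279 TPM of Cxcl13, had the lowest Ms4a1 of its day (3.15 TPM), and at day 6 mouse 8 had the highest Ms4a1 (3.09 TPM) but less Cxcl13 than mouse 9.

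In mid-colon the relation within days passed the test for Ccl19 (r 0.74) and not for Cxcl13 (r 0.62), and the difference between these r was not tested. Ms4a1 and Ccl19 had r 0.81 and rho 0.82 (permutation p 8e-05, adjusted p 0.0006), and within days r 0.74 and rho 0.70 (exact permutation p 0.0154, adjusted p 0.0401). Their pooled r was 0.67 without the 2 extreme samples. Ms4a1 and Cxcl13 had r 0.69 and rho 0.75 (permutation p 0.00098, adjusted p 0.00379), but within days r 0.62 and rho 0.41 did not pass (exact permutation p 0.0652, adjusted p 0.137). Without the 2 extreme samples the pooled r of Ms4a1 and Cxcl13 was 0.63. Mouse 11, with 91.3 TPM of Cxcl13 at day 9, had 1.61 TPM of Ms4a1, while mouse 17, with 16.7 TPM of Ms4a1, had 48.5 TPM of Cxcl13.

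In anus and neo-epithelium no relation with Ms4a1 passed both pooled and within days. Anal Ms4a1 and Cxcl13 had r 0.55 and rho 0.52 (permutation p 0.0157, adjusted p 0.0401 for r and 0.0606 for rho), which fell to 0.09 within days (adjusted p 0.898) and 0.49 without the 2 extreme samples (adjusted p 0.086). Anal Ms4a1 and Ccl19 had r -0.24 and rho -0.35 (permutation adjusted p 0.464), and r -0.63 without the 2 extreme samples (adjusted p 0.0202). The neo-epithelial values over 9 mice were r -0.42 and rho -0.45 for Cxcl13 (exact permutation adjusted p 0.429) and r -0.05 for Ccl19 (adjusted p 0.919). Within days the direction turned for Ms4a1 and Ccl19, to r 0.68 and rho 0.75 in neo-epithelium (exact permutation adjusted p 0.0556 for r) and to r 0.42 in anus (adjusted p 0.379). Neo-epithelial Ms4a1 and Cxcl13 turned to r 0.15 within days (adjusted p 0.793).

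**Figure D4:**
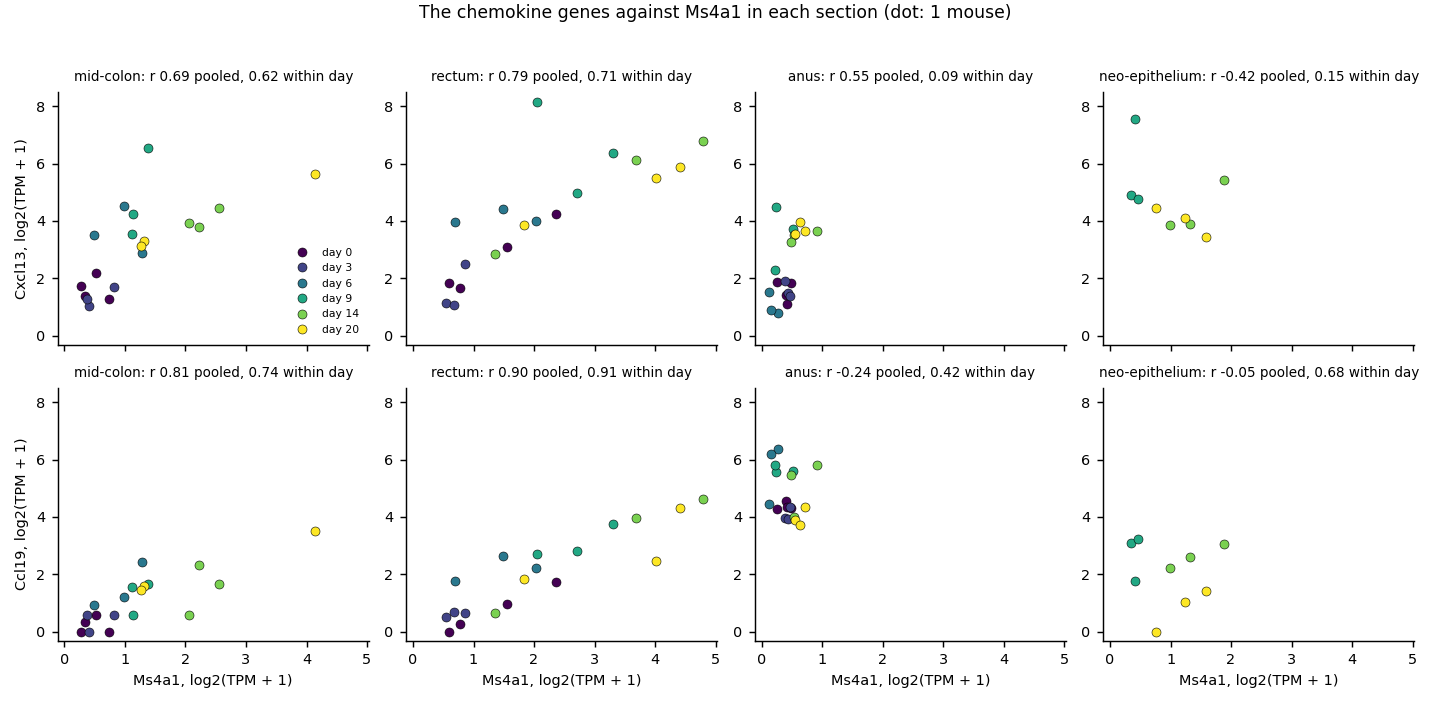
Cxcl13 (upper row) and Ccl19 (lower row) against Ms4a1, all as log2(TPM + 1), with 1 dot per mouse coloured by day and 1 panel per section. Rectal dots follow a rising line (r 0.79 for Cxcl13 and 0.90 for Ccl19), and anal dots are crowded at low Ms4a1.

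The remaining B cell genes gave the same order of sections. In rectum the pooled r with Cxcl13 passed for 7 of 7 B cell genes (0.66 to 0.85) and with Ccl19 for 7 of 7 (0.83 to 0.92), and within days for 3 and 7. In mid-colon it passed for 6 of 7 with Cxcl13 (0.46 to 0.71) and 7 of 7 with Ccl19 (0.70 to 0.89), and within days for 0 and 6. In anus 3 of 7 passed with Cxcl13 (0.20 to 0.55) and 0 with Ccl19, and in neo-epithelium 0 of 7 with either. Within days 0 passed in anus and 0 in neo-epithelium with either chemokine. By rho 0 anal B cell genes passed, while neo-epithelial Pax5 and Cxcl13 had a pooled rho of -0.78 (exact permutation adjusted p 0.044). The 2 chemokines were related to each other in rectum (r 0.88, rho 0.91, permutation adjusted p 0.000109, within days r 0.76, exact permutation adjusted p 0.0306). In mid-colon their r was 0.69 pooled (permutation adjusted p 0.00411) and 0.40 within days (adjusted p 0.433), and in anus it was -0.05 (adjusted p 0.898). The differences in r between sections were not tested.

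Among themselves the B cell genes ran together in rectum and mid-colon and less evenly elsewhere. The 21 pairs of the 7 B cell genes had a median r of 0.95 in rectum (0.92 to 0.99) and 0.90 in mid-colon (0.74 to 0.98), with within-day medians of 0.95 and 0.90, against 0.45 in anus and 0.71 in neo-epithelium. In the 14 samples with Cd79a at 5 TPM or more (9 rectal, 4 mid-colonic, 1 neo-epithelial), Cd79b was 0.963 to 2.17 times Cd79a in TPM, and Ms4a1 was 0.287 to 0.766 times. Cr2 was 0.132 to 0.716 times, Fcer2a 0.0436 to 0.243 times, Pax5 0.0609 to 0.281 times and Cxcr5 0.114 to 0.363 times. Cxcl13 was 1.14 to 35.3 times Cd79a with a median of 1.83, where the top value is mouse 11 in rectum at day 9 and the next is 6.77. Ccl19 was 0.0636 to 1.18 times with a median of 0.383.

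Among the genes whose levels ran most like those of Ms4a1 over all 66 samples (15307 genes compared) were Cd79a, Ighd, Cr2 and Cxcr5 (r 0.96 to 0.97). For Cxcl13 they were Klhl6 (r 0.80), Vcam1 (0.79), Fcrl1 (0.76), Cd37 (0.75) and Lpxn (0.75). For Ccl19 they were Rasgrp1, Thy1, Cpxm1, Trbc2 and Gga2 (r 0.86 to 0.87). Within rectum the gene most like Cxcl13 was again Klhl6 (0.92) and the gene most like Ccl19 was Gpr183 (0.95). Within anus the genes most like Cxcl13 were Zranb3 (0.91) and Tmprss11b (0.90). These values share libraries and sections and are descriptions.

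Of 14 further B lineage genes, 7 of 10 tested rose in mid-colon at day 14, when 2.55% of all genes were called higher (list median log2 difference 1.36, all genes -0.03). They were led by Cd72, a B cell co-receptor (1.86, adjusted p 0.0135), and Fcmr, the IgM Fc receptor (1.83, adjusted p 0.00957). Only 5 of the 14 were tested at day 9 and 5 at day 20, so some of the 10 reached the 1 TPM minimum only with the day 14 mice. The filter favoured a rise in such genes, and the count is a description. In mid-colon 3 of 5 were called at day 9, 2 of them higher (43.5% of all genes called, 26.5% higher). At day 20 it was 0 of 5 in limma (2 at an unadjusted p under 0.05, background 1.56%). Their summed level in mid-colon was 95.2 to 148 TPM at day 14, against 88.2 to 127 TPM at day 0. In rectum at day 9, 4 of 12 rose and 1 fell, near the 33.5% of all genes called higher, with Cd72 the largest (1.97, adjusted p 0.0066). At rectal days 14 and 20, 0 of 12 were called in limma (4 and 11 at an unadjusted p under 0.05, background 15.9% and 7.68%), with list medians of 1.63 and 1.61. In neo-epithelium 7 of 11 were lower than in rectum (22% of all genes lower), H2-Ob, a chain that tunes antigen presentation, among them (-1.65, adjusted p 0.00488).

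Germinal centre genes were mostly too low to test. In rectum at day 9, when 53.5% of all genes were called and 33.5% higher, both tested members of that list of 6 rose, Bcl6, the germinal centre repressor (1.29), and S1pr2, which holds B cells in the centre (1.00). In mid-colon at day 14, when 4.37% of all genes were called, 1 of 3 was called, Rgs13, lower (-1.02, adjusted p 0.0358). Of the plasma cell genes, 0 of 6 were called in limma in mid-colon at day 14 (2 at an unadjusted p under 0.05, list median 0.57). In rectum at day 9, 4 of 6 were called, 2 higher and 2 lower, with Jchain, the joining chain of secreted IgA and IgM, lower (-1.48, adjusted p 0.0158) and Prdm1, a factor of plasma cells that other cells also use, higher (1.32).

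Genes of the follicle's stroma and of lymphotoxin signalling, which induces follicle chemokines, gave the most calls against day 0 in rectum at day 9, when 53.5% of all genes were called and 33.5% higher. Of 9 stromal genes 7 were tested there and 5 called, 4 higher, led by Vcam1, an adhesion molecule (2.61, adjusted p 0.000252), and Tnfsf11, the cytokine RANKL (1.86, adjusted p 0.000106). Of the lymphotoxin genes 4 of 7 rose, led by Tnfsf14, the cytokine LIGHT (2.13, adjusted p 1.5e-05), and Ltb, lymphotoxin beta (1.93, adjusted p 0.00135). Ltb also rose in mid-colon at day 9 (0.95, adjusted p 0.00664) and day 14 (1.17, adjusted p 0.0393). Lta, lymphotoxin alpha, differed over rectal days (adjusted p 0.0179). Tnfsf13b, the B cell survival factor BAFF, rose in rectum at day 6 (0.93, adjusted p 0.00614) and day 9 (0.88, adjusted p 0.00815).

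In anus at day 14 (4.25% of all genes called), 2 of 7 stromal genes rose, Vcam1 (1.40, adjusted p 0.0328) and Ccl21a, a T zone chemokine with near-identical copies (0.94, adjusted p 0.0267). Of 6 tested genes of the follicle-associated epithelium, 4 rose in rectum at day 9 (33.5% of all genes higher), with Tnfaip2 at 4.86 and Marcksl1 at 3.20.

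Genes of other cell types moved in rectum at day 9 as well. T cell genes (9 listed) summed to 3.40 to 6.80 TPM in rectum at day 0, 25.3 to 37.1 TPM at day 9, 10.0 to 48.9 TPM at day 14 and 5.51 to 33.4 TPM at day 20. Of these genes 7 of 7 tested rose at day 9, when 33.5% of all genes were called higher (list median 1.73, all genes 0.13). Macrophage genes summed to 85.0 to 102 TPM in rectum at day 0 and 475 to 678 TPM at day 9. Neutrophil genes summed to 605 to 737 TPM and 11907 to 13809 TPM on these days. Epithelial genes were lower at day 9, with 3614 to 4920 TPM against 5607 to 6754 TPM at day 0. Ccr7, the receptor of Ccl19, rose at day 6 in rectum (1.89, adjusted p 0.000566), mid-colon (1.40, adjusted p 0.00246) and anus (1.86, adjusted p 0.00216). Between neo-epithelium and rectum, where the B cell genes were lower, 0 of 7 T cell genes were called in limma (0 at an unadjusted p under 0.05, list median -0.21, background 42.9%). The part of these cells in the chemokine levels was not tested.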

How the data were processed

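The deposited table held TPM values of transcripts in 66 samples, made by the authors with kallisto on mm10 after CASAVA base calling, per the submitters' processing notes (versions not given in the sources used here). Of 126860 rows, 37344 without values and 1318 repeats were dropped, after which each sample summed to between 999999.8 and 1000000.2. TPM were summed per symbol (30351 genes). Models used log2(TPM + 1) in limma 3.58.1 (R 4.3.3) with a trended prior, a gene minimum of 1 TPM in a number of samples equal to the smaller group's size, and Benjamini-Hochberg adjustment over all genes tested, with calls at an adjusted p under 0.05. The fit was tested on simulated data. Correlations used scipy 1.17.1 under Python 3.11.15, with 100000 resamples or exact enumeration. Sections of the same mouse were paired by the mouse numbers in the labels, and their deviations from group means had mean r from 0.054 to 0.275. Comparisons between sections were refitted with that block. Wider gene lists were described by counts, with at most 2 called genes per comparison named by size beside Ccr7, Tnfsf13b, Lta and Ltb. The members, lists and naming rule were chosen with earlier results of these data known. Gene positions are from GENCODE vM21 (GRCm38), and 6 of 9 members had an entry in the RefSeq promoter table. Results for 1 gene of the wider lists are not reported here.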

Additional observations from a re-analysis of the deposited data

Results flagged for a closer look

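Cr2 in mid-colon at day 0 stood out in mouse 4, at 1.16 TPM against 0.0184 to 0.0945 TPM in the other 3 mice. On the log2(TPM + 1) scale that gap made up 0.904 of the group's range. It was the 1 flag of 27 tests of this kind, and chance flags about 1 in 20. The tests covered the 9 members in mid-colon, rectum and anus at day 0 alone, all from the same 4 mice. Groups of 3 mice were too small for the check. The same mouse had the highest Cd79a, Ms4a1 and Cr2 of uninjured rectum.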

How the results depend on the processing

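The TPM scale shifted the median gene by up to 0.25 on the log2 scale against median-of-ratios scaling (mid-colon day 6 from -0.25 to 0, rectum day 6 from -0.27 to -0.02), and no member with an unadjusted p under 0.05 changed sign under it. Counts of members called, by setting, were as follows where they moved by over 1.5 times. Median-of-ratios scaling gave 2 in mid-colon at day 6, 2 at day 20, and in rectum 2 at day 6, 1 at day 14 and 1 at day 20. Without immunoglobulin and mitochondrial genes there were 2 in mid-colon at day 6, 3 at day 20, and 1 in rectum at days 14 and 20 each. With all days in one fit there were 1 and 4 in mid-colon at days 9 and 20, 0, 3, 1 and 1 in rectum at days 6, 9, 14 and 20, and 1 and 2 in anus at days 6 and 14. A pseudocount of 0.1 gave 2 in anus at day 9 and 1 between neo-epithelial days 20 and 9. No filter gave 1 over neo-epithelial days and 7 against anus. The replicate block gave 2 between anus and rectum at day 0 and changed no other count of members by over 1.5 times. Coding Ccl19 alone gave 0 in rectum at day 6, 0 in anus at day 9, 0 between anus and rectum at day 0, 1 over neo-epithelial days and 1 between its days 20 and 9.

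Leaving out 1 mouse at a time gave ranges of members called of 0 to 0, 1 to 2, 3 to 5, 4 to 7 and 0 to 5 in mid-colon at days 3, 6, 9, 14 and 20, and in rectum 0 to 2, 2 to 6, 0 to 9 and 0 to 9 at days 6, 9, 14 and 20. In anus they were 0 to 1, 1 to 2, 1 to 2 and 0 to 1 at days 6, 9, 14 and 20. Over days mid-colon had 6 to 9, rectum 8 to 9, anus 2 to 4 and neo-epithelium 0 to 3. They were 4 to 6 against rectum, 2 to 4 against anus and 0 to 3 between neo-epithelial days 20 and 9.

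Within days the r of Ms4a1 and Cxcl13 was 0.62 in mid-colon, 0.086 in anus and 0.15 in neo-epithelium, that of Ms4a1 and Ccl19 was 0.42 in anus and 0.68 in neo-epithelium, and that of the chemokines was 0.40 in mid-colon and -0.58 in neo-epithelium. With coding Ccl19 alone the chemokines had r 0.44 in mid-colon and 0.28 in anus, and Ms4a1 and Ccl19 had 0.15 in anus and 0.11 in neo-epithelium. Pooled over days without the 2 extreme samples, Ms4a1 had r 0.49 with Cxcl13 and -0.63 with Ccl19 in anus, and -0.76 with Cxcl13 in neo-epithelium. The cause of these changes was not tested. Depth is unknown, so values near 0 TPM carry no interval, and each group held 3 or 4 mice.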
